A study of Bos taurus with 8 samples.

Results

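The genes described here encode the contractile apparatus and the cytoskeleton of smooth muscle cells. They are the actins ACTA2 and ACTG2, the myosin heavy chain MYH11 and light chain MYL9, the actin-binding proteins CNN1, TAGLN, LMOD1, CALD1 and TPM2, and the intermediate filament protein DES. The genes were chosen by function, though earlier results of these data were known by then. Each was looked for among the array probes through the RefSeq accession that the scanner output gives for the probe. Of the 10 genes, 8 had such a probe, 1 each, among 7788 gene symbols that could be named in this way. CALD1, a caldesmon that binds actin and tropomyosin, and TPM2, a tropomyosin, were not linked to a probe by this rule and are not analysed here.

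The RNA came from rumen papillae of 4 ruminally cannulated female Holstein cows in a crossover of 2 diets and 2 periods. The low-concentrate group (LC) received 40% concentrate feed and the high-concentrate group (HC) 70%. Each cow gave 1 sample on each diet, taken on day 21 of a period and 4 h after the morning feeding, so each diet had 4 arrays and no group carried any other treatment. LC samples were taken from cows 1 and 2 in period 1 and from cows 3 and 4 in period 2, and HC samples were taken from each cow in the other period. All arrays of a period were on the same slide, and an effect of the slide cannot be told apart from one of the period. Within a period the LC and HC samples came from different cows.

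Smooth muscle cells shorten when myosin pulls on actin filaments, and the pull is switched on by phosphorylation of the regulatory light chain by a calcium-activated kinase. Calponin, transgelin, caldesmon and tropomyosin lie along the actin filament and modify its interaction with myosin, and desmin filaments link the contractile units to each other. A rumen papilla is a leaf of stratified squamous epithelium over a core of connective tissue and blood vessels, in which smooth muscle cells and pericytes of the vessel wall express many of these genes. The thick muscle of the rumen wall lies beneath the mucosa that bears the papillae. In RNA from whole tissue, fewer cells of a type and less RNA per cell cannot be told apart.

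Values are log2 signals of the array after quantile normalization, so a difference of 1 is a doubling of the signal. A probe's brightness also depends on how well it binds, so the levels of different genes are not compared with each other. All 8 measured genes were well above background, by the scanner software's own test, on all 8 arrays. The lowest signal that passed this test lay between 2.02 and 2.77, depending on the array. Over the whole array, 76.9 to 81.2% of the 21475 probes passed on each array, and 16030 did on all 8, which are called detected probes below. No spot was saturated, and the number of arrays limits the precision.

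The names of cows 1 and 2 are uncertain. A table of normalized values was deposited beside the scanner output, and on both diets its columns for these cows followed the scanner array of the other cow, with a Pearson r across probes of 0.9976 to 0.9981 while r with their own array was 0.9928 to 0.9936. For the smooth muscle genes, 18 of 64 values in that table differed by over 0.3 from the array named like their column, and 0 of 64 from the array that the column followed. The diet of these cows was the same in each period, so the exchange leaves the diets, the periods and the pairing of samples by animal as they are. The cow numbers below are those of the scanner output.

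No difference between the diets passed the test in any of the 8 genes. The difference HC minus LC lay between -0.12 for MYL9 and 0.13 for CNN1, with a median of 0.04. By the study's definition of a differentially expressed gene, at least a 1.5-fold change together with p below 0.05 before adjustment, 0 of 8 genes passed in limma, against 0.922% of all 21475 probes. The 8 genes also had no unadjusted p under 0.05, and the adjusted p in limma was 1 for each, while the smallest adjusted p of any probe was 0.412. The 95% interval of the difference lay within a 1.5-fold change either way for 7 of 8 genes, all but DES, so a larger mean difference lay outside the interval of those 7. The limma p-values rest on the spread between the 2 cows of the same diet and period, moderated over all probes (4 residual degrees of freedom). The exact permutation test compares the 4 samples of each diet and cannot give a p under 0.0286. Neither test uses the pairing of samples by cow.

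**Figure D1:**
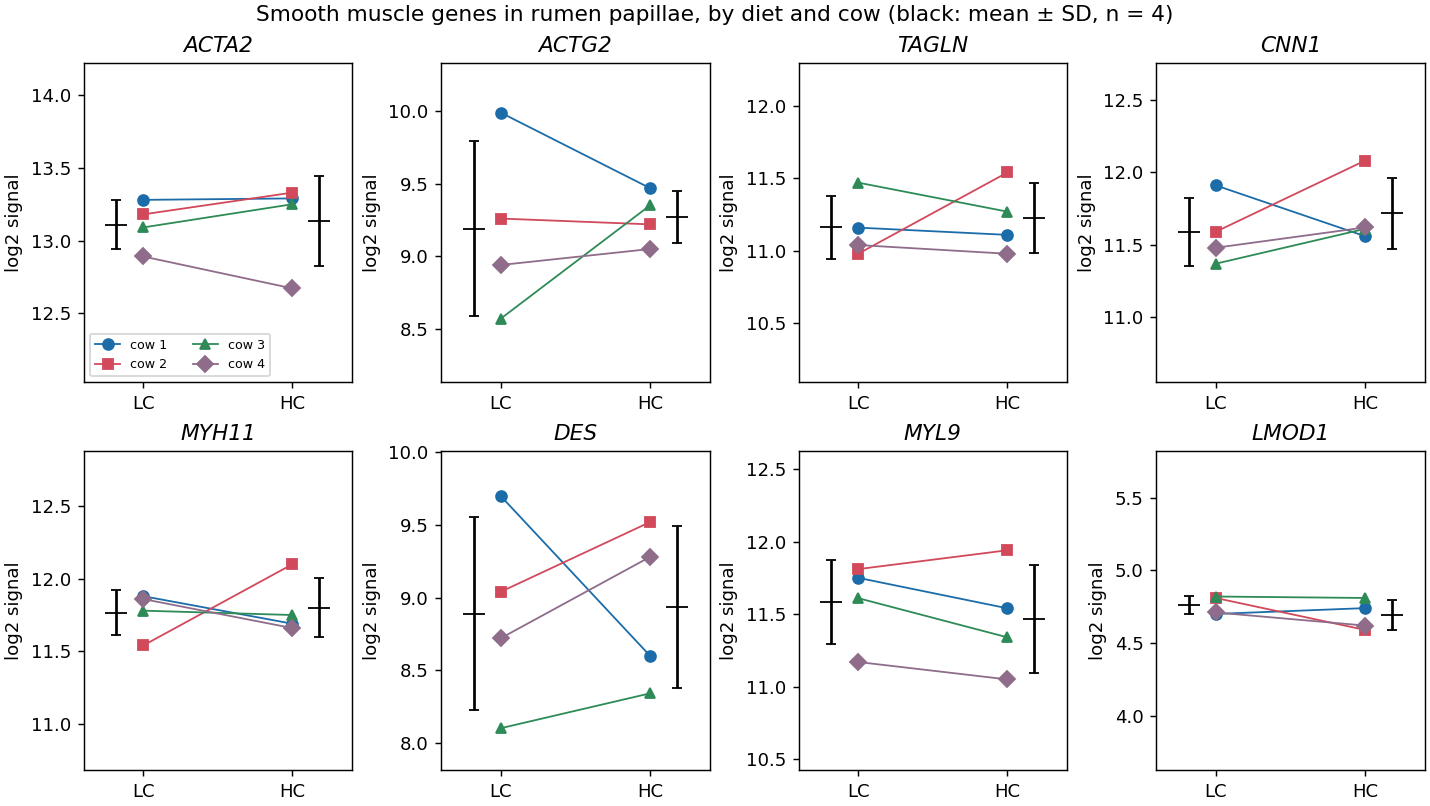
Log2 signal of the 8 smooth muscle genes on each diet (x axis), 1 panel per gene and 1 line per cow, with the mean ± SD of the 4 arrays of a diet in black. The y axes span the same number of log2 units in each panel but start at different levels. The lines of DES and ACTG2 cover the widest range, 1.61 and 1.42, and the diets overlap in every panel.

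ACTA2, the actin of vascular smooth muscle, had log2 signals of 13.28, 13.18, 13.09 and 12.89 on LC in cows 1 to 4, and of 13.29, 13.33, 13.25 and 12.67 on HC. Cow 4 was the lowest on both diets, and the other three cows lay close together on HC. The means were 13.11 ± 0.17 on LC and 13.13 ± 0.31 on HC (SD, n = 4). The difference was 0.02 (SE 0.15), with a 95% interval of 0.796- to 1.3-fold (limma p = 0.877, exact two-sided permutation p = 0.886). In 3 of 4 cows the HC sample was the higher. The sign of the difference depends on the scaling: with arrays scaled to their 75th percentile, or with a normexp background correction, the difference was -0.01.

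ACTG2, the actin of visceral smooth muscle, had log2 signals of 9.99, 9.26, 8.57 and 8.94 on LC, and of 9.47, 9.22, 9.35 and 9.05 on HC. The highest and the lowest of all 8 arrays were both LC arrays, of cows 1 and 3, and they were 2.68-fold apart. All HC values fell between them. The means were 9.19 ± 0.60 on LC and 9.27 ± 0.18 on HC (SD, n = 4), and the difference was 0.08 (SE 0.20, 95% interval 0.761- to 1.48-fold, limma p = 0.683, exact two-sided permutation p = 0.8). Cow 3 rose by 0.78 from LC to HC while cow 1 fell by 0.52, and 2 of 4 cows were higher on HC. Actins are alike in sequence, and whether the probes of ACTA2 and ACTG2 also bind other actin transcripts was not tested.

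MYH11, the smooth muscle myosin heavy chain and a defining marker of the mature cell, had log2 signals of 11.88, 11.54, 11.78 and 11.86 on LC, and of 11.69, 12.10, 11.75 and 11.66 on HC. Cow 2 was the lowest array on LC and the highest on HC, and the other three cows were lower on HC than on LC. The means were 11.76 ± 0.15 and 11.80 ± 0.21 (SD, n = 4), and the difference was 0.04 (SE 0.13, 95% interval 0.819- to 1.28-fold, limma p = 0.8, exact two-sided permutation p = 0.8).

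MYL9, the regulatory light chain whose phosphorylation starts contraction, had log2 signals of 11.75, 11.81, 11.61 and 11.17 on LC, and of 11.54, 11.94, 11.34 and 11.05 on HC. On both diets cows 1 and 2 were above cow 3, and cow 3 was above cow 4. The means were 11.58 ± 0.29 on LC and 11.47 ± 0.37 on HC (SD, n = 4), and the signal was lower on HC in 3 of 4 cows. The difference was -0.12 (SE 0.15, 95% interval 0.713- to 1.19-fold, limma p = 0.476, exact two-sided permutation p = 0.657).

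CNN1, calponin, an inhibitor of the myosin ATPase that is bound to actin, had log2 signals of 11.91, 11.59, 11.37 and 11.48 on LC, and of 11.56, 12.08, 11.61 and 11.62 on HC. Cow 2 stood apart from the other three cows on HC, which lay within a narrow band. The means were 11.59 ± 0.23 on LC and 11.72 ± 0.25 on HC (SD, n = 4), and 3 of 4 cows were higher on HC. The difference was 0.13 (SE 0.15, 95% interval 0.853- to 1.4-fold, limma p = 0.416, exact two-sided permutation p = 0.457).

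TAGLN, transgelin, an actin-bundling protein also known as SM22, had log2 signals of 11.16, 10.98, 11.47 and 11.04 on LC, and of 11.11, 11.54, 11.27 and 10.98 on HC. The highest arrays were that of cow 3 on LC and that of cow 2 on HC. The means were 11.16 ± 0.22 and 11.23 ± 0.24 (SD, n = 4), and the difference was 0.06 (SE 0.16, 95% interval 0.799- to 1.37-fold, limma p = 0.704, exact two-sided permutation p = 0.657). Only cow 2 was higher on HC, by 0.57, and this rise outweighed the smaller falls of the other three cows in the mean.

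LMOD1, leiomodin, which starts new actin filaments in smooth muscle, had log2 signals of 4.70, 4.81, 4.82 and 4.71 on LC and of 4.74, 4.59, 4.81 and 4.62 on HC. The diets overlapped, and the whole range over 8 arrays was 0.23. The means were 4.76 ± 0.06 on LC and 4.69 ± 0.10 on HC (SD, n = 4). The difference was -0.07 (SE 0.10, 95% interval 0.811- to 1.12-fold, limma p = 0.497, exact two-sided permutation p = 0.343), and 1 of 4 cows was higher on HC. The SD between the spots of the probe on an array was 0.241, larger than the SD of 0.09 between arrays of a diet, so its order of cows cannot be read.

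DES, desmin, the intermediate filament protein of muscle cells, varied the most, with log2 signals of 9.70, 9.04, 8.10 and 8.72 on LC and of 8.60, 9.52, 8.34 and 9.28 on HC. The array of cow 1 on LC and that of cow 3 on LC were 3.04-fold apart. The means were nonetheless 8.89 ± 0.67 on LC and 8.93 ± 0.56 on HC (SD, n = 4). The difference was 0.04 (SE 0.33, limma p = 0.901, exact two-sided permutation p = 0.914), and its 95% interval of 0.592- to 1.79-fold was the widest of the set. In cow 1 desmin fell by 1.10 from LC to HC, and in cows 2, 3 and 4 it was higher on HC by 0.48, 0.24 and 0.55.

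**Figure D2:**
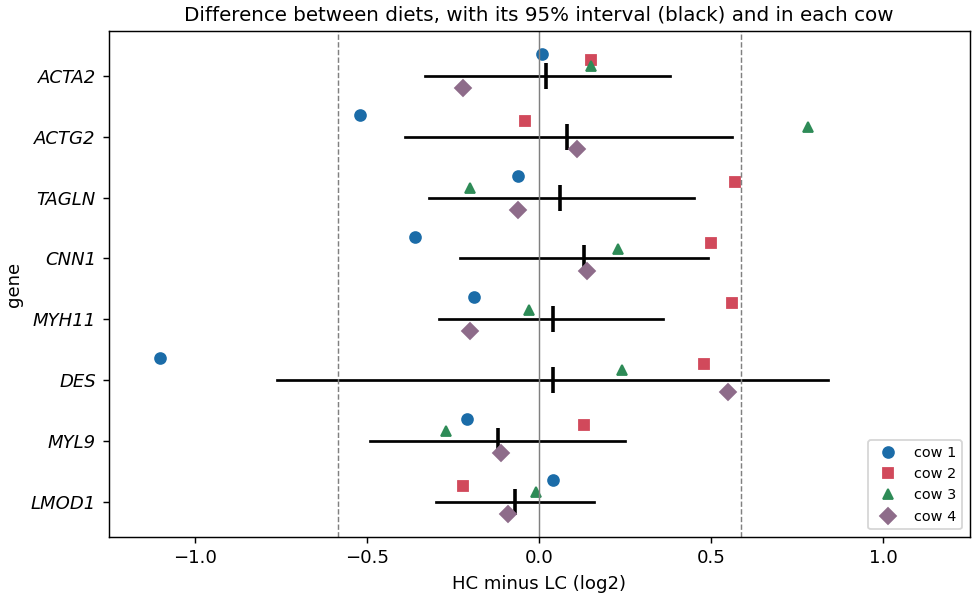
Difference HC minus LC (x axis, log2) for each smooth muscle gene (y axis), as the mean and its 95% interval from limma in black and as the difference within each of the 4 cows in colour, drawn above or below the line so that they do not hide each other. The dashed lines mark a 1.5-fold change either way. Each interval includes 0, and the interval of DES alone passes the dashed lines.

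The spread between samples of one diet exceeded the difference between diets in 8 of 8 genes. The SD of the arrays of a diet, pooled over both diets, was 0.25 for ACTA2, 0.45 for ACTG2, 0.18 for MYH11, 0.33 for MYL9, 0.24 for CNN1, 0.23 for TAGLN, 0.09 for LMOD1 and 0.61 for DES. Most genes on the array have this property: among the 16030 detected probes, the SD exceeded the difference in 86%. The median SD was 0.24 over the smooth muscle genes and 0.21 over the detected probes, and the median absolute difference was 0.07 and 0.08. DES and ACTG2 lay in the upper tail, as 3.14% of the probes had an SD at least as large as that of DES and 8.67% one at least as large as that of ACTG2. The spread of DES was 10.3 times, and that of ACTG2 6.18 times, the SD between spots of the same probe on an array, so spot noise on the array was small beside it. Sampling, RNA preparation and labelling were not replicated and are part of the spread between arrays.

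**Figure D3:**
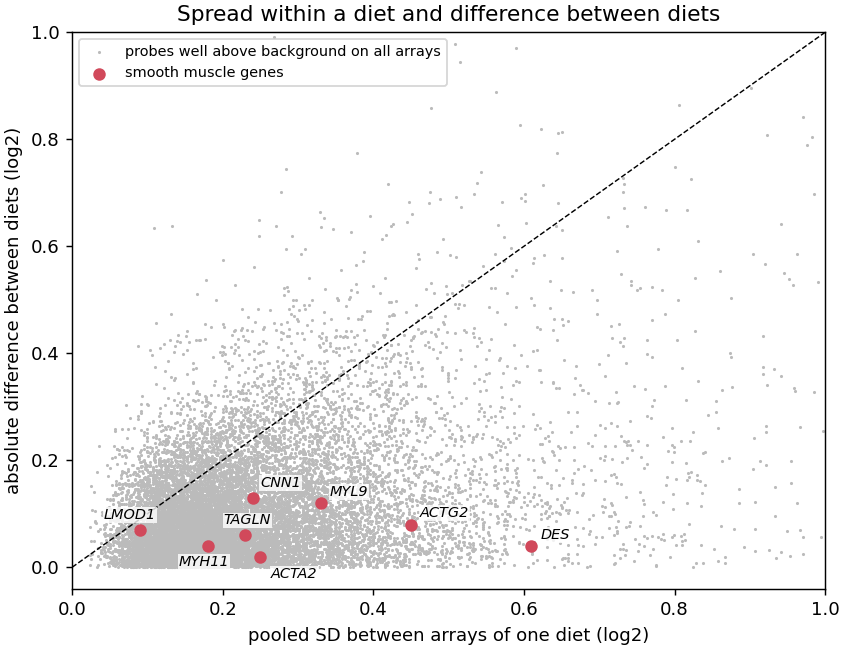
Pooled SD between arrays of one diet (x axis, log2) and absolute difference between diets (y axis, log2) for the detected probes in grey and the 8 smooth muscle genes in red. The dashed line marks equality and 95 grey points lie beyond an axis limit of 1. All 8 red points lie below the line, and DES and ACTG2 lie farthest to the right.

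No gene of the set changed in the same direction in all 4 cows, against 11.3% of the detected probes. In cow 1, 6 of 8 genes were lower on HC, with a median difference of -0.20. In cow 2, 6 of 8 were higher on HC, with a median of 0.32, and the exceptions were ACTG2 with -0.04 and LMOD1 with -0.22. Cow 3 had 4 of 8 genes higher on HC and a median of 0.07, and cow 4 had 3 of 8 and a median of -0.08. Over the detected probes, between 47.4 and 52.8% were higher on HC in each cow. The differences in cows 1 and 2 therefore had opposite signs in most of these genes, in the same 2 periods and diets. LMOD1 is among them, and its spread lies within its spot noise. Each cow gave 1 array on each diet, so a response of the animal and variation between arrays cannot be told apart.

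Each gene's log2 signals were also centred on its mean over 8 arrays and averaged over the 8 genes, which gave 0.28, 0.01, -0.17 and -0.17 on LC in cows 1 to 4 and -0.02, 0.27, -0.05 and -0.15 on HC. The highest arrays were 1 of each diet, that of cow 1 on LC and that of cow 2 on HC, and both belong to the uncertain pair of names. The array of cow 2 on HC held the highest value of 5 genes, and that of cow 1 on LC of 2 genes. The remaining gene was LMOD1, whose order of arrays cannot be read. All arrays of cows 3 and 4 lay below 0. The genes were not scaled to equal spread in this mean, so DES and ACTG2, which varied most, weigh most in it. On the array of cow 1 on LC they lay 0.79 and 0.76 above their own means. In cow 3, DES lay at -0.81 on LC and -0.58 on HC, while 3 of 8 genes on LC and 4 of 8 on HC were above their own mean. In cow 4 it was 1 of 8 genes on each diet.

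Cows 1 and 2 had the higher mean in 7 of 8 genes, against 48.7% of the detected probes. In this crossover the difference between cows 1 and 2 and cows 3 and 4 is one and the same contrast as the interaction of diet and period, which the study's model contains, at 0.5 times its size, so a difference between animals, an effect of the order of the diets and an interaction cannot be told apart. MYL9 was higher in cows 1 and 2 by 0.47 (SE 0.15, means 11.76 and 11.29, limma p = 0.0209, adjusted p = 0.429, exact two-sided permutation p over the arrays = 0.0571). ACTG2 was higher in them by 0.51 (SE 0.20, means 9.49 and 8.98, limma p = 0.0407, adjusted p = 0.471, exact two-sided permutation p over the arrays = 0.0857). These 2 of 8 genes passed an unadjusted p under 0.05, as did 10.2% of all probes, and 0 of 8 also passed a 1.5-fold difference between the pairs of cows, as did 2.93%. On the scale of the interaction itself, the diet difference in period 2 minus that in period 1, the values were 0.94 for MYL9 and 1.01 for ACTG2, and these 2 of 8 genes passed both thresholds, as did 8.58% of all probes. The other differences were 0.61 for DES, 0.29 for ACTA2, 0.27 for CNN1, 0.04 for MYH11, 0.01 for TAGLN and -0.03 for LMOD1, and none had an unadjusted limma p under 0.05. This test takes both arrays of a cow as separate samples. On the mean of each cow, neither passed, with a limma p of 0.0586 for MYL9 and 0.062 for ACTG2.

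The same contrast appears as opposite signs of the diet difference in the periods, where the diets are compared between different cows, 2 a diet. In period 1, with cows 1 and 2 on LC, 7 of 8 genes were lower on HC, and 50.7% of the detected probes were higher. MYL9 had a difference of -0.59 there (SE 0.16, limma adjusted p = 0.715) and was the 1 gene past both thresholds, which 3.53% of all probes passed. In period 2, with cows 1 and 2 on HC, 7 of 8 genes were higher on HC, against 49% of those probes. ACTG2 had a difference of 0.59 (SE 0.20, limma adjusted p = 0.835) and was the 1 gene past both thresholds, which 3.78% of all probes passed. DES was at -0.56 in period 1 and 0.65 in period 2 without passing the p threshold, and TAGLN at 0.06 and 0.07. MYH11 was at -0.01 and 0.08, and LMOD1, whose spread lies within its spot noise, at -0.04 and -0.1. Genes of 1 cell type on the same arrays are not independent, so the shared signs within a period were not tested. Between the periods themselves, 0 of 8 genes passed both thresholds or an unadjusted limma p under 0.05, while 3.86% of all probes passed both.

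The genes did not vary as one block. Across the 8 arrays, which are 2 from each of 4 cows, the highest Pearson r was 0.82 between CNN1 and DES, followed by 0.81 between ACTA2 and MYL9 and 0.70 between TAGLN and MYH11. Desmin, which varied most, had an r of 0.04 with ACTA2 and of -0.15 with TAGLN. The lowest r was -0.74 between DES and LMOD1, whose spread lies within its spot noise. Of 6461 other named genes, those closest to the mean centred pattern of the set over the 8 arrays were RUVBL1 with an r of 0.94, NUDCD3 with 0.92, KRT80 with 0.91, GNA12, MARCKSL1 and TNFRSF25 with 0.90, and LRRN4CL and NECAB3 with 0.89. None of these 8 belongs to the muscle or cell type lists below. They are the top of 6461 correlations over only 8 arrays, of which 5 were over 0.9. Correlations this high can arise by chance among so many genes, and this was not tested.

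The wider machinery of smooth muscle was measured by 31 of 58 listed genes, partners and regulators such as kinases, focal adhesion proteins, channels and receptors. Of these, 29 were detected on all arrays, and their median difference between the diets was -0.01, with a range of -0.26 to 0.22. None of the 31 passed both thresholds. The brightest were MYL6, the essential light chain of smooth and non-muscle myosin, with a difference of 0.22 (SE 0.13), MYLK, the kinase that phosphorylates the regulatory light chain, with -0.05 (SE 0.14), and CNN2, a calponin of smooth and non-muscle cells, with -0.01 (SE 0.08). The mean centred signal of the 29 genes lay between -0.01 and 0.03 on the LC arrays and between -0.11 and 0.11 on the HC arrays, and was highest on the array of cow 2 on HC. CHRM2, the muscarinic receptor M2, and EDNRB, an endothelin receptor, were not well above background on any array. Of 15 non-muscle actin and myosin genes, 10 had a probe, 9 were detected on all arrays, and 0 passed both thresholds, with a median difference of -0.01. Their brightest probes were those of MYL6 again, ACTG1, a cytoplasmic actin, with -0.08, and TAGLN2, a transgelin of non-muscle cells, with -0.10.

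**Figure D4:**
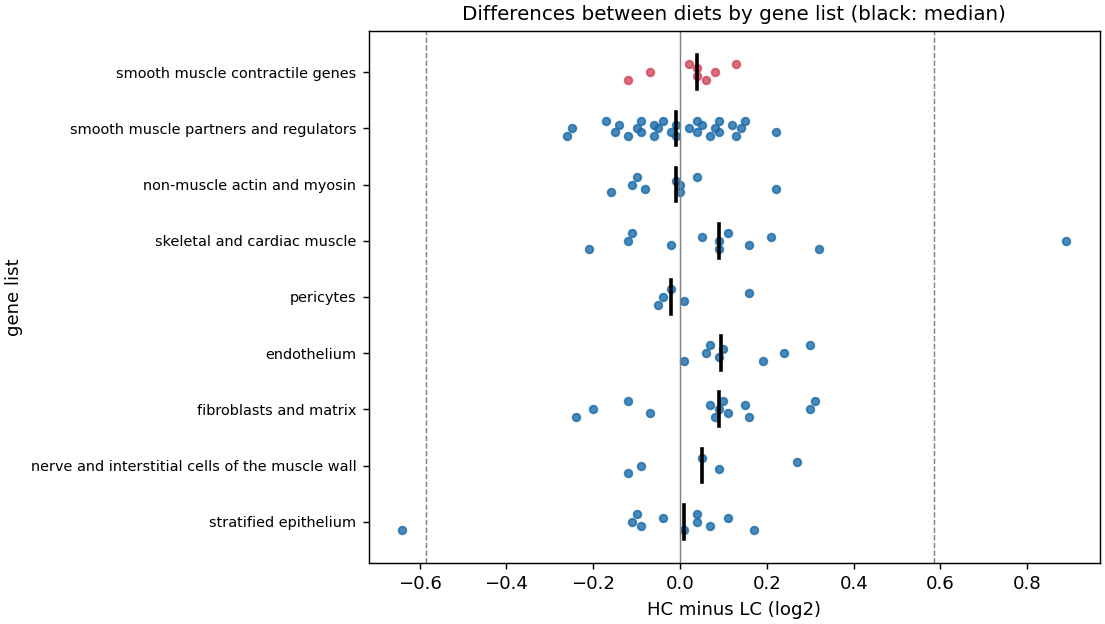
Difference HC minus LC (x axis, log2) of each gene detected on all 8 arrays, by gene list (y axis), with the list's median as a black bar and a 1.5-fold change either way as dashed lines. The 8 smooth muscle contractile genes, in red, lie between -0.12 and 0.13. The points beyond the dashed lines are TNNC2 at 0.89 and DSG1 at -0.64.

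Skeletal and cardiac muscle genes were examined as a check on the kind of muscle in the samples. Of 30 listed genes, 19 had a probe, 12 were detected on all arrays and 5 on none. Of all 21475 probes, 16030 were detected on all arrays and 3487 on none. The 5 genes detected on none included the skeletal actin ACTA1 and the fast myosin heavy chains MYH1 and MYH2. Those detected on all arrays included the slow myosin heavy chain MYH7, the slow troponin subunit TNNT1, the creatine kinase CKM, myoglobin (MB) and the myogenic factors MYOD1 and MYOG. The signal of MYOD1 was 2.85 to 3.60 over the arrays, and that of TNNT1 was 3.08 to 5.98. The others lay higher on their lowest arrays, MYH7 at 6.63 to 7.86, MYOG at 6.15 to 6.43, CKM at 4.69 to 5.24 and MB at 4.13 to 4.77. The lowest signals that passed the background test were 2.02 to 2.77. Whether these probes also bind other transcripts was not tested, so their detection does not settle the kind of muscle. TNNI3, the inhibitory subunit of cardiac troponin, ACTN3, an alpha-actinin of fast fibres, and ACTC1, the cardiac actin, were the brightest of the 19, with differences between the diets of -0.21, 0.32 and 0.11. TNNC2, the calcium-binding troponin subunit of fast skeletal muscle, was the 1 gene past both thresholds among the 102 genes of the 8 other lists that had a probe, a share of 0.98% against 0.922% of all probes. It had 4.18 ± 0.31 on LC and 5.07 ± 0.73 on HC (SD, n = 4) and a difference of 0.89 (SE 0.32, limma p = 0.0301, adjusted p = 1, exact two-sided permutation p = 0.0857).

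Marker genes of the other cells of the papilla were examined as whole lists. Pericytes, the contractile cells of small vessels, were measured by 5 of 9 genes, each detected on all arrays. They had a median difference of -0.02, and their mean centred signal lay between -0.14 and 0.28 on LC and between -0.14 and 0.20 on HC. The brightest were NDUFA4L2 with 0.16, HIGD1B with 0.01 and RGS5, a regulator of G protein signalling that marks pericytes, with -0.02. Endothelial cells were measured by 8 of 12 genes, each detected on all arrays. All 8 differences were above 0, with a median of 0.09 and a range of 0.01 to 0.30, and none of the 8 passed both thresholds. The median difference over the detected probes was 0, and the smallest unadjusted limma p among the 8 was 0.152. Genes of 1 cell type on the same arrays are not independent, so their shared sign was not tested. ENG, a co-receptor for TGF-beta, had 0.09, KDR, a VEGF receptor, 0.01 and TEK, the angiopoietin receptor, 0.07. The mean centred signal of these 8 genes lay between -0.18 and 0.10 on LC and between -0.03 and 0.17 on HC, and both arrays that were highest in smooth muscle genes were below 0, at -0.12 and -0.02.

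Fibroblasts and their matrix were measured by 13 of 16 genes, each detected on all arrays, with a median difference of 0.09 and a range of -0.24 to 0.31. Their mean centred signal lay between -0.27 and 0.11 on LC and between -0.16 and 0.26 on HC, and was 0.11 on the array of cow 1 on LC and -0.12 on that of cow 2 on HC. SPARC, a matrix protein that binds collagen, had a difference of 0.11, VIM, the intermediate filament protein of mesenchymal cells, -0.12 and LUM, a proteoglycan of collagen fibrils, 0.07. Nerve and interstitial cells of the muscle wall were measured by 7 of 12 genes, of which 5 were detected on all arrays and VIP and ELAVL4, of enteric nerves and of neurons, on none. The median difference of those 5 was 0.05, and their mean centred signal lay between -0.15 and 0.22 on LC and between -0.14 and 0.25 on HC. UCHL1 and PRPH, genes of neurons, were the brightest, with 0.05 and -0.12.

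Stratified epithelium, which covers the papilla, was measured by 12 of 21 genes. Of these, 11 were detected on all arrays, TP63, a transcription factor of basal cells, on none, and the median difference was 0.01. TP63 had a signal of 0.07 to 0.15, and whether its probe reports the transcript was not tested. The keratins KRT14, KRT6A and KRT15 were the brightest, with differences of -0.09, 0.04 and 0.01. DSG1, a desmosomal cadherin of upper layers, had -0.64 without passing the p threshold. The mean centred signal of the 11 genes lay between -0.25 and 0.21 on LC and between -0.16 and 0.31 on HC, and was 0.19 on the array of cow 1 on LC and -0.12 on that of cow 2 on HC. On the same 2 arrays the means were 0.22 and -0.14 for nerve and interstitial genes and -0.03 and -0.01 for pericyte genes. For non-muscle actin and myosin genes they were 0.14 and -0.01, and for partners and regulators 0.03 and 0.11. For skeletal and cardiac muscle genes they were -0.24 and -0.09. The part of any of these cell types in the spread of the smooth muscle genes was not tested.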

How the data were processed

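RNA from rumen papillae of 4 cows on each of 2 diets was hybridised to 8 single-colour bovine oligonucleotide arrays. The authors deposited the scanner output, made with Agilent Feature Extraction 10.7.3.1. It holds a background-subtracted intensity of each spot, without normalization between arrays, and a table of quantile-normalized log2 values, which served as an alternative. Control spots and outlier spots (0 to 13 an array) were left out. The log2 intensities of 42990 spots were quantile-normalized (limma 3.58.1, R 4.3.3). Spots were then averaged to give 21475 probes, with no filter on dim probes. Array medians before normalization were 92.02 to 132 intensity units. A probe counted as well above background where most of its spots did.

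Of 10176 probes with a RefSeq accession, 8297 were named through the reference table (ARS-UCD2.0). The brightest probe stood for a gene. No positions are given, since the array and this table are of different genome builds, and probe sequences were not used here.

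The limma model held diet, period and the interaction of both (4 residual and 2.26 prior degrees of freedom, prior SD 0.182), with Benjamini-Hochberg adjustment over all probes. The interaction is given as the difference between the pairs of cows, 0.5 times the interaction itself. The script was tested on simulated data. Exact permutation tests were two-sided, and the groups came from the labels. To check the pairing, deviations from the diet means were correlated across 16030 probes: r was 0.285, 0.298, 0.467 and 0.113 between the samples of cows 1 to 4, and -0.237 to 0.185 between samples of different cows. The samples of a cow are paired by the design. Figures were drawn with matplotlib 3.10.9.

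The 10 genes and the 8 other lists were chosen with earlier results of these data known. The rule for naming other genes was the 3 brightest of each list, any past both thresholds, and the 8 closest in pattern to the set. One gene that this rule names is not reported here. The other genes of the lists that are named, DSG1, CHRM2, EDNRB, TP63, ACTA1, MYH1, MYH2, MYH7, TNNT1, CKM, MB, MYOD1, MYOG, VIP and ELAVL4, were named after their values were seen.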

Additional observations from a re-analysis of the deposited data

Results flagged for a closer look

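In each diet, the highest and the lowest of the 4 samples of each of the 8 genes were compared with the nearest other sample, which gives 16 groups, of which chance marks about 1 in 20. For ACTA2 on HC, the gap between cow 4 at 12.67 and the next sample was 0.871 of the whole range. For CNN1 on HC, the gap between cow 2 at 12.08 and the next was 0.882 of the range. Both exceed Dixon's 95% critical value for 4 samples, and no other group did.

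An unadjusted p under 0.05 for the difference between the diet effects of the periods, the interaction term, was found for ACTG2 (unadjusted limma p = 0.0407, adjusted p = 0.471, exact permutation p over the arrays = 0.0857, with -0.42 in period 1 and 0.59 in period 2) and for MYL9 (unadjusted limma p = 0.0209, adjusted p = 0.429, exact permutation p over the arrays = 0.0571, with -0.59 and 0.35). Over other settings the p ranged from 0.00718 to 0.121 for ACTG2 and from 0.011 to 0.066 for MYL9. In this design the term is also the contrast of cows 1 and 2 with cows 3 and 4, and on the mean of each cow neither gene passed, with a limma p of 0.062 for ACTG2 and 0.0586 for MYL9. Of all probes, 10.2% had an unadjusted p under 0.05 for this term.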

How the results depend on the processing

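The count of 0 genes past both thresholds between diets held under 19 of 21 alternatives. The exceptions were the fits within 1 period, with a count of 1 each (MYL9 in period 1, ACTG2 in period 2) and a median difference of -0.20 in period 1 and 0.34 in period 2. Within period 1 the differences were -0.27 for ACTA2, -0.42 for ACTG2, -0.14 for CNN1, -0.01 for MYH11 and -0.56 for DES, against the direction over both periods, and within period 2 that of MYL9 was 0.35. Scaling to the 75th percentile and normexp (an offset of 50, on median signals) each turned ACTA2 to -0.01, with a shift in the median of all probes of at most 0.007. Leaving out 1 sample at a time gave -0.12 to 0.17 for ACTA2, -0.10 to 0.27 for ACTG2, -0.05 to 0.17 for TAGLN, 0 to 0.26 for CNN1, -0.23 to -0.01 for MYL9, -0.07 to 0.14 for MYH11, -0.19 to 0.28 for DES, -0.05 to 0.11 for the median, which fell below 0 without LC cow 2 (-0.05) or HC cow 2 (-0.04), and 0 for the count between diets each time. The count for the interaction, with the fold taken between the pairs of cows, was 0 to 1 (ACTG2 without LC cow 2 or LC cow 4, DES without HC cow 4). With the fold taken on the interaction itself, a setting chosen after seeing the data, it was 2 (ACTG2 and MYL9). Its unadjusted p for ACTG2 passed 0.05 without either of these 2 LC samples and missed it without each of the other 6, and for MYL9 it missed 0.05 without LC cow 2 or 4 or HC cow 2 or 4. Without moderation it was 0.0891 for ACTG2. The causes were not tested. With cow as a replicate block and period in the fit, the count was 0 and the limma p lay between 0.313 and 0.888, and the replicate block changed no call. The mean of all probes per gene and the link by gene name were not run, because each gene had 1 probe and the scanner output used here has no such column. The 4 samples a diet limit the precision to the intervals given for each gene.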
